A study of Mus musculus with 2 samples.

Results

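GABA and glycine are the inhibitory transmitters of the retina, and 7 genes of their synthesis, vesicle loading, reuptake, and breakdown were followed by symbol among the 32285 genes of the count tables: *Gad1*, *Gad2*, *Slc32a1*, *Slc6a9*, *Slc6a11*, *Slc6a13*, and *Abat*. The tables hold droplet-based 3′ scRNA-Seq of retina from male C57BL/6J mice at 7 months of age, with 1 WT library and 1 ND6 mutant library, both labelled replicate 1. The mutant carries 13997 G>A in the mtDNA gene ND6, which encodes a subunit of complex I; per the study's methods the mice were made by fusion of female embryonic stem cells, carry the mutation homoplasmically in the whole body, and were bred by crossing mutant females with WT males, whereas WT mice were bred by brother-sister mating. How many mice gave each library is not given in the sources used here. The question the study put to these libraries was how the mutation affects the cell types of the retina, neurotransmission among them.

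Amacrine cells are interneurons of the inner retina, and most use either GABA or glycine. GABA is made from glutamate by the glutamic acid decarboxylases GAD67 (*Gad1*) and GAD65 (*Gad2*), loaded into vesicles together with glycine by the shared vesicular transporter VGAT (*Slc32a1*), and degraded by GABA transaminase (*Abat*). Glycinergic amacrine cells accumulate glycine through the plasma membrane transporter GLYT1 (*Slc6a9*). GAT3 (*Slc6a11*) and GAT2 (*Slc6a13*) take up GABA from the extracellular space, and Müller cells, the radial glia of the retina, clear much of the transmitter.

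On mm10, *Gad1* lies at chr2:70553072-70602014, *Gad2* at chr2:22622205-22693874, *Slc32a1* at chr2:158610767-158615748, *Slc6a9* at chr4:117834506-117875198, *Slc6a11* at chr6:114131241-114249952, *Slc6a13* at chr6:121300227-121337733, and *Abat* at chr16:8513429-8621568, all 7 on the plus strand. Amacrine cells were identified here from *Tfap2a*, *Tfap2b*, and *Pax6*. The first pair encodes AP-2 factors, so the RefSeq promoters (GRCm38.p6, the assembly also called mm10) of 6 members were searched for the AP-2 motif GCCNNNGGC, whose reverse complement reads the same. Each window covers 250 bases before to 50 bases after the start in the promoter annotation. That start can differ from the first base of the gene positions above. For *Gad1*, the window lies downstream of the printed gene start, and the sequence at that start was not searched. *Gad2* held 2 matches and *Slc6a11* held 1, whereas the windows of *Gad1*, *Slc32a1*, *Slc6a9* (3 starts), and *Slc6a13* (3 starts) held 0. Of all 32851 promoters in the table, 16.6% held the motif. The windows of both decarboxylase genes, which were detected in many of the same amacrine cells, and of *Slc6a11*, which was detected beside them, are shown on the plus strand with matches in capitals; *Gad1* has none.
Gad2 (chr2:22622077-22622376): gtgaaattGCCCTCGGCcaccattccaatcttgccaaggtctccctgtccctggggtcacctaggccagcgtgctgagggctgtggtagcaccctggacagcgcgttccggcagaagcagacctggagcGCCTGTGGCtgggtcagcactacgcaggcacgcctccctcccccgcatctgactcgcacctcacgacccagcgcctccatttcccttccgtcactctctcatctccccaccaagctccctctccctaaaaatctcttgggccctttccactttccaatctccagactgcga
Slc6a11 (chr6:114130991-114131290): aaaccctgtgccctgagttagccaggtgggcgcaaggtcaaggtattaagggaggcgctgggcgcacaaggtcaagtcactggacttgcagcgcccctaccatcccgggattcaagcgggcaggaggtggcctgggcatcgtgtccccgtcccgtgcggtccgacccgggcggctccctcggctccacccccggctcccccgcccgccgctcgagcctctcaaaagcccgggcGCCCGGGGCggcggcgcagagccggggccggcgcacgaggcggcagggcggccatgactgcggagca
Gad1 (chr2:70561879-70562178): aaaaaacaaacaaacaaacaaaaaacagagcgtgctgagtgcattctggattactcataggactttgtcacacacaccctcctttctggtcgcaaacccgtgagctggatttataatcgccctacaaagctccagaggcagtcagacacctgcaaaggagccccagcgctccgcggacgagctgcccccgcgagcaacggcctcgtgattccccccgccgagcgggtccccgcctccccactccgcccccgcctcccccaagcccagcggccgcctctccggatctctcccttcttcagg

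A match describes the letters of the window and not a bound site. Other motifs differed among the members. The first start of *Slc6a13*, which was highest in RPE cells, held 2 copies of the M-box CATGTG, read on both strands, and this motif was in 14.2% of all promoters. The E-box CANNTG, which overlaps the M-box, was found in 72.3% of promoters and was most frequent in the first *Slc6a9* window, with 4 copies.

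Cells were barcodes that met the study's limits for UMIs, genes, and mtDNA-encoded UMIs, which left 12529 WT and 18395 mutant cells with a median of 1878 and 1416 UMIs. The libraries differed before any gene was compared. The mtDNA limit of 20% removed 10647 WT barcodes and 3861 mutant barcodes. In all, 59 barcodes were cells in both libraries, 0 of them amacrine cells. Barcodes with more than 100 and up to 200 UMIs, which are below the cell limit, numbered 11026 in WT and 44915 in the mutant. With 1 library per condition, a difference between libraries has no replicate check and cannot be told apart from a difference between mice or preparations. No p-value was computed, and all 95% intervals below are exact and cover counting error only. Levels are in CPM, the UMIs of a gene per 1000000 UMIs summed over the cells of a class, and differences are log2 ratios of the mutant over the WT level. A gene was counted as past 2-fold only with at least 20 UMIs over both libraries in the class.

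At least 2 of the 3 amacrine markers were detected in 41 WT cells, or 0.327% of cells (0.235% to 0.444%), and in 153 mutant cells, or 0.832% (0.706% to 0.974%). Of 12 further amacrine markers that the rule did not use, 6 were highest in these cells in either library, among them *Snhg11*, *Gria3*, *Calb2*, *C1ql1*, and *C1ql2*. The study itself used *Snhg11* as its marker of horizontal cells and *Gria3* as one of amacrine cells. *Meis2* and *Nrxn3* were instead highest in bipolar cells in both libraries. In WT, *Nrxn3* was at 846 CPM in bipolar and 340 CPM in amacrine cells. *Npy* was highest in barcodes too small to be cells in both libraries. *Vip* was highest in rods in WT and in such small barcodes in the mutant. *Chat*, the marker of starburst amacrine cells, had 0 UMIs in the amacrine cells of both libraries, and *Slc18a3* had 0 in WT and 1 in the mutant. The amacrine cells of the libraries were not equally clean. Leaving the rod rule aside, 35 of 41 WT cells (85.4%) met no rule of another class, against 79 of 153 mutant cells (51.6%). Of the mutant cells, 27 also met the Müller rule, 40 the cone rule, and 22 the bipolar rule, compared with 3, 3, and 0 of the WT cells. A horizontal cell rule (at least 2 of *Onecut1*, *Onecut2*, and *Lhx1*) was met by 3 mutant and 0 WT cells. A ganglion cell rule (at least 2 of *Rbpms*, *Slc17a6*, *Pou4f1*, and *Pou4f2*) was met by 4 mutant and 0 WT cells. Rod markers were detected in nearly all amacrine cells, with 39 of 41 WT and 144 of 153 mutant cells meeting the rod rule. The 5 rod markers summed to 24954 CPM in WT and 28048.5 CPM in mutant amacrine cells, against 48831 and 52854 CPM in rods. Such UMIs enter the total to which the amacrine levels are scaled. The part of mixed barcodes in the results below was not tested, and the values of several results without them are given.

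*Gad1* was concentrated in amacrine cells in both libraries. Its level there was 177 CPM in WT (91 UMIs, 142 to 217 CPM) and 178 CPM in the mutant (311 UMIs, 159 to 199 CPM). The next class lay 29.2-fold lower in WT (Müller cells, 9.67 to 144) and 25.0-fold lower in the mutant (bipolar cells, 14.1 to 48.9). The level thus marks the same class in both libraries, and the log2 ratio of mutant over WT in amacrine cells was 0.01 (−0.33 to 0.37). The WT level rested on few cells. Only 7 of 41 WT cells had a *Gad1* UMI, 5 cells held 97.8% of the UMIs, and 1 cell held 39 of the 91. In the mutant, 50 of 153 cells had a UMI, and the 5 highest held 30.2%. Among cells with a UMI, the median was 11 UMIs in WT and 4 in the mutant. Without the highest cell of each library, the log2 ratio was 0.65, and without barcodes that met another class's rule it was 0.64, so that near equality is not a firm value.

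*Gad2*, whose product resides mainly at synaptic terminals, was also highest in amacrine cells, at 44.7 CPM in WT (23 UMIs, 28.3 to 67.1) and 69.4 CPM in the mutant (121 UMIs, 57.6 to 83.0). The log2 ratio was 0.64 (−0.02 to 1.35), an interval that includes 0. It was detected in 10 of 41 WT and 40 of 153 mutant amacrine cells. Of the 7 WT cells with *Gad1*, 5 also had *Gad2*, as had 30 of the 50 mutant cells with *Gad1*.

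*Slc32a1*, the vesicular transporter shared by both transmitters, was at 146 CPM in WT amacrine cells (75 UMIs, 115 to 183) and at 149 CPM in the mutant (259 UMIs, 131 to 168). Müller cells came next in both libraries, 9.02-fold lower in WT (4.35 to 21.6) and 4.65-fold lower in the mutant (2.88 to 7.96). The log2 ratio in amacrine cells was 0.03 (−0.35 to 0.42), and 0.55 without barcodes that met another class's rule. Unlike *Gad1* in WT, this gene was spread over many cells. It was detected in 26 of 41 WT cells, where the 5 highest held 33.3% of the UMIs, and in 74 of 153 mutant cells, where they held 18.5%.

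*Slc6a9* was the 1 member with enough UMIs in amacrine cells that was lower in the mutant. The level was 498 CPM in WT (256 UMIs, 439 to 562) and 262 CPM in the mutant (456 UMIs, 238 to 287). The log2 ratio was −0.93 (−1.15 to −0.70). It was −0.85 without the highest cell of each library. Without barcodes that met another class's rule, the rod rule left aside, it was −0.91. In the 13 WT and 27 mutant cells with all 3 amacrine markers the log2 ratio was −0.49, outside the interval above. Both the share of cells with *Slc6a9* and the count per positive cell were lower. A UMI was found in 25 of 41 WT cells (61.0%, 44.5% to 75.8%) and in 66 of 153 mutant cells (43.1%, 35.2% to 51.4%). Among cells with *Slc6a9*, the median was 11 UMIs in WT and 5 in the mutant. Amacrine cells had a median of 8025 UMIs and a mean of 12548 in WT, and a median of 9177 and a mean of 11390 in the mutant. After amacrine cells, *Slc6a9* was highest in the RPE cells of WT, at 171 CPM, and in the Müller cells of the mutant, at 137 CPM. Müller and RPE cells of the mutant (132 CPM) did not differ beyond counting error (1.03-fold, 0.776 to 1.37).

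*Slc6a11*, the GABA transporter GAT3, was highest in Müller cells, at 162 CPM in WT (80 UMIs, 128 to 201.2) and 85.3 CPM in the mutant (48 UMIs, 62.9 to 113). In WT, the Müller level was 3.33-fold above that of amacrine cells (2.10 to 5.44), whereas in the mutant it was 1.29-fold above (0.903 to 1.83), an interval that includes no difference. In amacrine cells, the level was 48.6 CPM in WT (25 UMIs) and 66.0 CPM in the mutant (115 UMIs), with a log2 ratio of 0.44 (−0.19 to 1.13). Of the 25 WT UMIs, 14 came from 1 cell, and the log2 ratio was 1.49 without the highest cell of each library and 0.97 without barcodes that met another class's rule. Bipolar cells had 23.6 CPM in WT and 53.5 CPM in the mutant.

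*Slc6a13*, the transporter GAT2, was a gene of the RPE class and not of amacrine or Müller cells. Cells with at least 3 of the 5 RPE markers had 332 CPM in WT (422 UMIs, 301 to 365) and 324 CPM in the mutant (368 UMIs, 292 to 359). The next class, bipolar cells, lay 58.5-fold lower in WT (26.6 to 160) and 54.6-fold lower in the mutant (29.3 to 115). The log2 ratio in RPE cells was −0.03 (−0.24 to 0.17), the narrowest interval of any member in this class. In amacrine cells there was 1 UMI in WT and 8 in the mutant. Müller cells had 0 UMIs in both libraries, where 3 counts would have given 6.06 CPM in WT and 5.33 CPM in the mutant.

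*Abat*, GABA transaminase, was shared by several classes. In WT, RPE cells had 90.4 CPM (115 UMIs), Müller cells 62.7 CPM (31 UMIs), and amacrine cells 36.9 CPM (19 UMIs). In the mutant, amacrine cells had 59.7 CPM (104 UMIs), RPE cells 55.5 CPM (63 UMIs), and Müller cells 39.1 CPM (22 UMIs). RPE and Müller cells did not differ beyond counting error in WT (1.44-fold, 0.963 to 2.22), nor did amacrine and RPE cells in the mutant (1.07-fold, 0.778 to 1.49). The log2 ratio of mutant over WT was 0.69 (−0.02 to 1.48) in amacrine cells, −0.68 (−1.54 to 0.15) in Müller cells, and −0.70 (−1.17 to −0.25) in RPE cells. Of these, the interval of the RPE cells alone excluded 0.

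**Figure D1:**
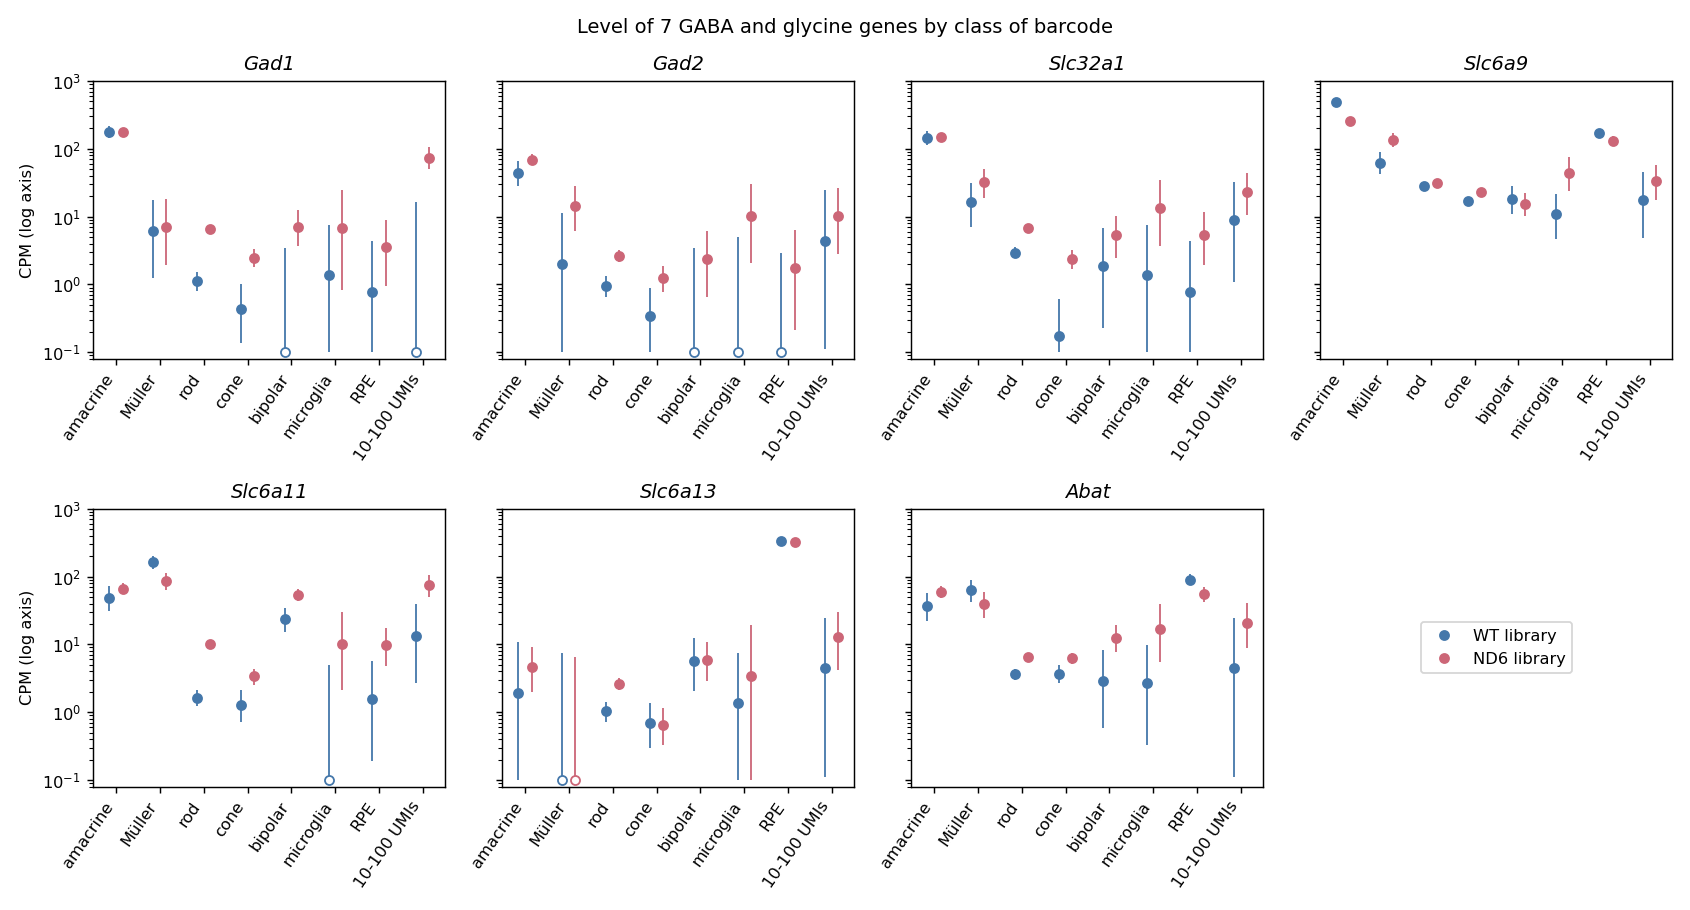
Level of each member in CPM on a log axis by class of cell and in barcodes of 10 to 100 UMIs, with exact 95% Poisson intervals. Blue points are the WT library, red points the mutant (ND6) library, and open points at the lower edge are classes with 0 UMIs. *Gad1*, *Gad2*, *Slc32a1*, and *Slc6a9* are highest in amacrine cells, *Slc6a11* in Müller cells, and *Slc6a13* in RPE cells, and the red points of *Gad1* and *Slc6a11* in barcodes of 10 to 100 UMIs stand at 74.5 CPM.

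In amacrine cells, 6 of the 7 members had at least 20 UMIs. Of these, 5 were higher and 1 was lower in the mutant, and 0 were past 2-fold in either direction, where 6.44% of 9915 genes were past 2-fold higher and 2.75% past 2-fold lower. The median log2 ratio of the 6 members was 0.23, against −0.01 over all genes. Without barcodes that met another class's rule, *Gad2* (1.28) and *Abat* (1.19) were past 2-fold higher, and with all 3 amacrine markers required, *Abat* alone (1.28).

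In Müller cells, defined by at least 2 of *Slc1a3*, *Aqp4*, and *Sox9* in 44 WT and 96 mutant cells, 4 members had at least 20 UMIs. *Slc6a11* was lower in the mutant, with a log2 ratio of −0.92 (−1.47 to −0.39), and *Slc6a9* was higher, at 1.13 (0.51 to 1.78). The Müller level of *Slc6a9* rested on few cells, however: 8 of 44 WT and 17 of 96 mutant cells had a UMI, and 1 cell held 12 of 31 WT UMIs and 1 held 17 of 77 mutant UMIs. With at least 3 of 6 Müller markers required, the log2 ratio of *Slc6a9* was 0.39, and without the mtDNA limit or with the mean of per-cell CPM 0 members were past 2-fold higher. *Slc32a1* had 8 WT and 18 mutant UMIs. In the cells as defined, 1 member was past 2-fold higher and 0 were past 2-fold lower, where 4.92% and 7.01% of 7599 genes were. The summed level of the 3 Müller markers in these cells was 1378 CPM in WT and 748 CPM in the mutant, and that of the 3 amacrine markers, nearly all of it *Pax6*, was 293 and 176 CPM. The 12 further amacrine markers summed to 370 CPM in WT and 729 CPM in the mutant, with *Snhg11* at 58.6 and 212 CPM and *Calb2* at 16.2 and 65.8 CPM, and the bipolar markers summed to 36.4 and 229 CPM. The part of these in the member values was not tested.

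In RPE cells, 3 members could be compared, and 0 of them were past 2-fold, where 9.11% of 8478 genes were past 2-fold higher and 2.87% lower. *Slc6a9* had a log2 ratio of −0.37 (−0.68 to −0.07) there, from 218 WT and 150 mutant UMIs. The median depth of RPE cells was 4748 UMIs in WT and 1366 in the mutant. In these cells the rod markers summed to 8608 CPM in WT and 21126 CPM in the mutant, and the RPE markers to 16355 and 14863 CPM. The part of rod RNA in the member values, those of *Abat* and *Slc6a9* included, was not tested.

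Rods do not use GABA or glycine as transmitters. The rod class, which kept barcodes with UMIs of 1 amacrine marker, had low levels of every member, and all 7 were higher in the mutant. *Gad1* was at 1.11 CPM in WT (40 UMIs in 11072 rods) and 6.49 CPM in the mutant (240 UMIs in 15481 rods), a log2 ratio of 2.54 (2.05 to 3.06). *Slc6a11* was at 1.64 and 10.2 CPM, a log2 ratio of 2.63 (2.23 to 3.05). These were the 2 largest ratios. *Gad2* followed with 1.48, *Slc6a13* with 1.33, *Slc32a1* with 1.22, and *Abat* with 0.83, whereas *Slc6a9* had 0.18 (0.05 to 0.30). In rods, 5 of 7 members were past 2-fold higher and 0 lower, where 13.4% and 1.09% of 14113 genes were. With at least 1000 UMIs per cell 4 members were past 2-fold higher, *Slc6a13* being at 0.81, and without the mtDNA limit *Gad1* was at 1.72. The median of the members was 1.33, against 0.08 over all genes. Among rods without a UMI of *Tfap2a*, *Tfap2b*, *Pax6*, or *Snhg11*, the log2 ratio was 2.42 for *Gad1*, 2.63 for *Slc32a1*, and 2.55 for *Slc6a11*. These were 10656 of the 11072 WT and 13387 of the 15481 mutant rods. In them, *Slc32a1* was at 0.546 CPM in WT and 3.37 CPM in the mutant, against 2.95 and 6.89 CPM in all rods. *Slc6a9* was at 16.6 and 19.2 CPM, against 28.0 and 31.6 CPM. *Gad1* was at 1.06 and 5.67 CPM. *Slc6a13* was the 1 member at a higher level than in all rods, at 1.12 and 2.77 CPM. Over all rods, the summed markers of other classes were also higher in the mutant, but to different degrees. Those of microglia differed little, at 9.967 CPM in WT and 10.975 CPM in the mutant. Those of horizontal cells were at 1.726 and 2.703 CPM. The summed level was 17.5 CPM in WT and 31.5 CPM in the mutant for amacrine markers, 8.13 and 26.4 CPM for Müller markers, 28.0 and 86.1 CPM for bipolar markers, 92.7 and 176 CPM for cone markers, 32.9 and 87.1 CPM for RPE markers, and 1.64 and 7.95 CPM for ganglion cell markers. Apart from leaving out rods with amacrine markers, the part of RNA of other classes in the member values was not tested.

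The share of rods with a UMI was low. *Gad1* was found in 0.343% of WT and 1.34% of mutant rods, and *Slc6a11* in 0.497% and 2.14%. *Slc6a9* was found in 5.05% and 4.63%, but unevenly, since 29 WT and 34 mutant rod barcodes with at least 5 of its UMIs held 39.6% and 33.3% of all *Slc6a9* UMIs in rods. *Gad1* was spread more evenly, with its 40 WT UMIs in 38 rods and its 240 mutant UMIs in 208 rods, whereas *Slc32a1* had 106 UMIs in 52 WT rods.

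In cones, 4 of the 6 members with at least 20 UMIs were past 2-fold higher in the mutant and 0 lower, where 5.81% and 1.14% of 12479 genes were. *Gad1* was at 0.429 CPM in WT and 2.49 CPM in the mutant, and *Slc32a1* at 0.172 and 2.37 CPM, from 2 and 40 UMIs. In bipolar cells, *Gad1* had 0 UMIs in WT, where 3 counts would have given 2.84 CPM, and 12 UMIs or 7.13 CPM in the mutant. *Slc6a11* had a log2 ratio of 1.18 (0.53 to 1.88) in bipolar cells. Over all cells, 4 of 7 members were past 2-fold higher in the mutant and 0 lower, where 8.81% and 2.84% of 15888 genes were. *Gad1* had the highest of these ratios, 1.92 (1.65 to 2.19), and *Slc6a13* was the 1 member that was lower, at −0.16 (−0.34 to 0.02). A sum over all cells mixes the share of each class with its level per cell. Amacrine cells made up 0.327% of WT and 0.832% of mutant cells. Their *Gad1* level was 177 and 178 CPM, a near equality that was not firm. They gave 91 of 143 WT and 311 of 624 mutant *Gad1* UMIs, and rods gave 40 and 240. The part of each in the summed ratio was not tested.

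Barcodes too small to be cells were taken to show the level of RNA outside cells. In barcodes of 10 to 100 UMIs, *Gad1* had 0 UMIs in WT, where 3 counts would have given 13.3 CPM, and 29 UMIs in the mutant, each in a different barcode. The mutant level was 74.5 CPM (49.9 to 107). *Slc6a11* had 3 UMIs or 13.3 CPM in WT and 29 UMIs or 74.5 CPM in the mutant. The other members had 1 to 4 UMIs in WT and 4 to 13 in the mutant. These barcodes held 226145 UMIs in WT and 389287 in the mutant, so that few counts stand behind each value.

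In the far larger set of barcodes with more than 100 and up to 200 UMIs, 5 of 7 members were past 2-fold higher in the mutant and 0 lower, where 41.9% and 0.609% of 11990 genes were, and the median log2 ratio over all genes was 0.84. *Gad1* was at 6.49 CPM in WT and 55.4 CPM in the mutant, a log2 ratio of 3.09 (2.23 to 4.11). *Slc32a1* was at 2.36 and 37.3 CPM (3.98, 2.61 to 5.87), and *Gad2* at 2.36 and 17.0 CPM (2.85, 1.45 to 4.75). *Slc6a11* was at 9.45 and 64.6 CPM, and *Slc6a9* at 26.0 and 67.0 CPM. *Slc6a13*, the RPE gene, differed least, at 5.90 and 7.67 CPM (0.38, −0.62 to 1.52). In these barcodes, mtDNA-encoded genes made up 37.2% of UMIs in WT and 10.4% in the mutant. Scaled without these genes, the log2 ratio was 2.58 for *Gad1*, 2.34 for *Gad2*, 3.47 for *Slc32a1*, 2.26 for *Slc6a11*, 0.85 for *Slc6a9*, and 0.34 for *Abat*, and *Slc6a13* was at −0.14 (−1.13 to 1.01).

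Set against these levels, the amacrine values of *Gad1*, *Gad2*, *Slc32a1*, and *Slc6a9* in the mutant stood above those of barcodes of 10 to 100 UMIs, by log2 ratios of 1.26 (0.71 to 1.86), 2.76 (1.36 to 4.66), 2.68 (1.74 to 3.83), and 2.97 (2.18 to 3.89). With barcodes of 10 to 50 UMIs alone, the mutant level was 30.2 CPM for *Gad1*, 0 for *Slc32a1*, and 80.4 CPM for *Slc6a11*. *Slc6a11* did not stand above the barcodes of 10 to 100 UMIs. Its mutant level of 66.0 CPM in amacrine cells and 85.3 CPM in Müller cells lay near the 74.5 CPM of those barcodes, with log2 ratios of −0.17 (−0.77 to 0.47) and 0.20 (−0.50 to 0.91). In WT, the Müller level of 162 CPM was set against the WT barcodes of 10 to 100 UMIs. These had 13.3 CPM from 3 UMIs, and the log2 ratio was 3.61 (2.01 to 5.92). In the mutant, the *Slc6a11* level of Müller cells was thus not set apart from that of barcodes of 10 to 100 UMIs. Elsewhere in this library it was 10.2 CPM in rods, 3.37 CPM in cones, and 53.5 CPM in bipolar cells. The share of a cell's UMIs that comes from outside the cell was not measured. The comparison therefore cannot show whether mutant Müller cells express the gene. The mutant rod levels lay well below those of barcodes of 10 to 100 UMIs, at −3.52 (−4.08 to −2.91) for *Gad1* and −2.87 (−3.42 to −2.28) for *Slc6a11*. The part of RNA from outside cells in the rod values was not tested.

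The proportions of the GABA trio were compared between amacrine cells and the other barcodes. Of the UMIs of *Gad1*, *Gad2*, and *Slc32a1* together, *Gad1* made up 45.0% (41.3% to 48.8%) in mutant amacrine cells, 50.5% (46.8% to 54.2%) in barcodes of more than 100 and up to 200 UMIs, and 40.5% (36.5% to 44.5%) in rods. *Gad2* made up 17.5%, 15.5%, and 16.5%. The *Gad1* intervals of these barcodes and of rods do not overlap, and *Slc32a1* made up 34.0% (30.5% to 37.6%) in these barcodes and 43.0% (39.0% to 47.1%) in rods. In mutant rods without amacrine markers, *Gad1* made up 52.6% (47.0% to 58.2%). In the 42 UMIs of barcodes of 10 to 100 UMIs *Gad1* made up 69.0% (52.9% to 82.4%). In WT, *Gad1* made up 48.1% (40.8% to 55.5%) in amacrine cells and 22.2% (16.4% to 29.0%) in rods, where *Slc32a1* made up 58.9%. In WT rods without amacrine markers, *Gad1* made up 48.6% (36.7% to 60.7%).

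**Figure D2:**
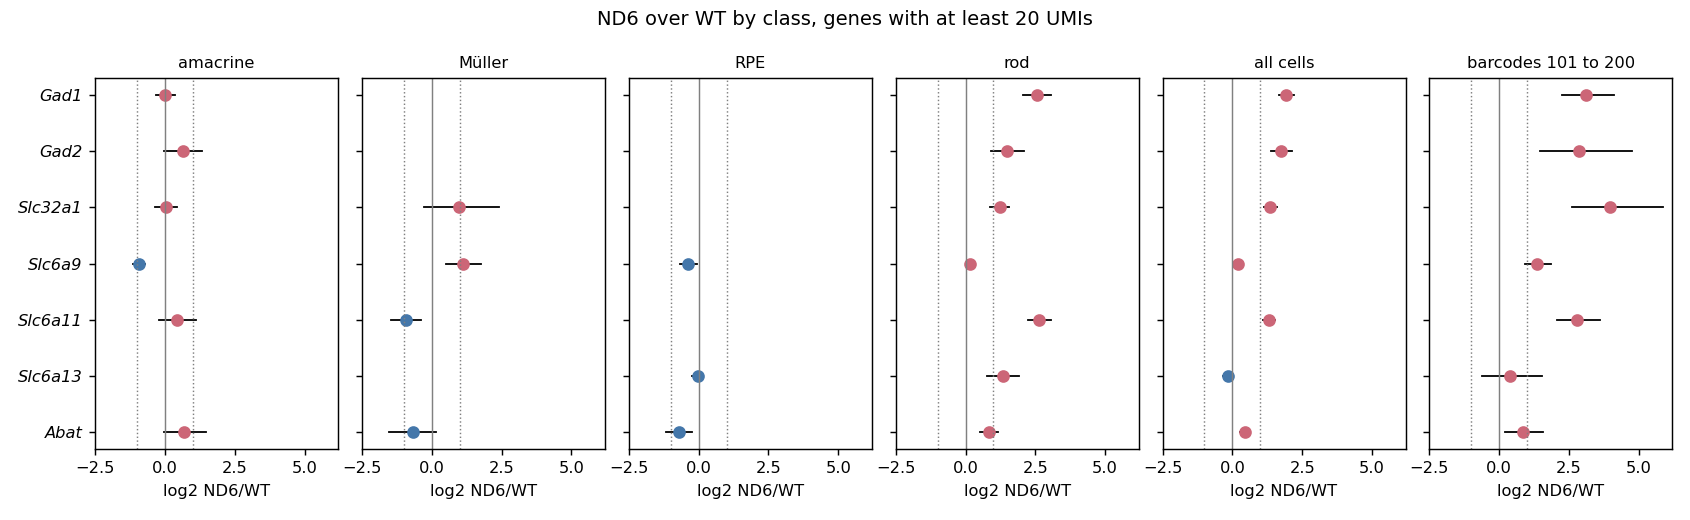
Log2 ratio of the mutant (ND6) over the WT level of each member in 5 sets of cells and in barcodes of more than 100 and up to 200 UMIs, with exact 95% intervals, for members with at least 20 UMIs in the set. Red points are higher and blue points lower in the mutant, dotted lines mark 2-fold. *Slc6a9* is the 1 blue point among amacrine cells, at −0.93, whereas all 7 points of rods lie above 0.

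Amacrine cells were then divided by whether they had UMIs of a decarboxylase, of *Slc6a9*, of both, or of neither. In WT, 4 of 41 cells had *Gad1* or *Gad2* UMIs without *Slc6a9* (9.76%, 2.72% to 23.1%), and 17 had *Slc6a9* alone (41.5%, 26.3% to 57.9%). In the mutant, 38 of 153 had a decarboxylase alone (24.8%, 18.2% to 32.5%), and 44 had *Slc6a9* alone (28.8%, 21.7% to 36.6%). Cells with both made up 19.5% in WT and 14.4% in the mutant, and cells with neither 29.3% and 32.0%. The GABA side was thus larger and the glycine side smaller in the mutant library, but for either side the intervals of the libraries overlapped. A count of 1 UMI was enough to place a cell, so the sets need not be cell identities. At least 5 UMIs were found in 5 of 7 WT and 24 of 50 mutant cells with *Gad1*. For *Gad2* it was 1 of 10 and 9 of 40, and for *Slc6a9* 20 of 25 and 34 of 66. In barcodes of 10 to 100 UMIs, *Gad1* had 0 UMIs in WT and 29 in the mutant. The part of RNA from outside cells in the division was not tested. Without barcodes that met another class's rule, a decarboxylase alone was found in 8.57% of WT and 31.6% of mutant cells, and *Slc6a9* alone in 42.9% and 27.8%.

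The *Slc6a9* share was also lower in the mutant library at equal depth, but the intervals of the libraries overlapped at 1000 and at 4000 UMIs. With each cell thinned to 1000 UMIs, *Slc6a9* was detected in 32.5% of WT cells (18.6% to 49.1%) and 23.3% of mutant cells (16.7% to 31.0%). With each cell thinned to 4000 UMIs, which left out 6 WT and 27 mutant cells, *Slc6a9* was detected in 60.0% of WT cells (42.1% to 76.1%) and 33.3% of mutant cells (25.2% to 42.3%). *Gad1* or *Gad2* was detected in 25.7% (12.5% to 43.3%) and 28.6% (20.9% to 37.3%), compared with 29.3% and 39.2% before thinning. Without barcodes that met another class's rule, *Slc6a9* was detected at 4000 UMIs in 69.0% (49.2% to 84.7%) and 36.8% (24.4% to 50.7%). As a background, *Slc6a9* was found in 18.9% (16.1% to 22.0%) of WT cones and 18.2% (16.1% to 20.4%) of mutant cones, whose median depths before thinning were 8060.5 and 7501.5 UMIs, and *Gad1* in 0.565% and 2.58%.

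**Figure D3:**
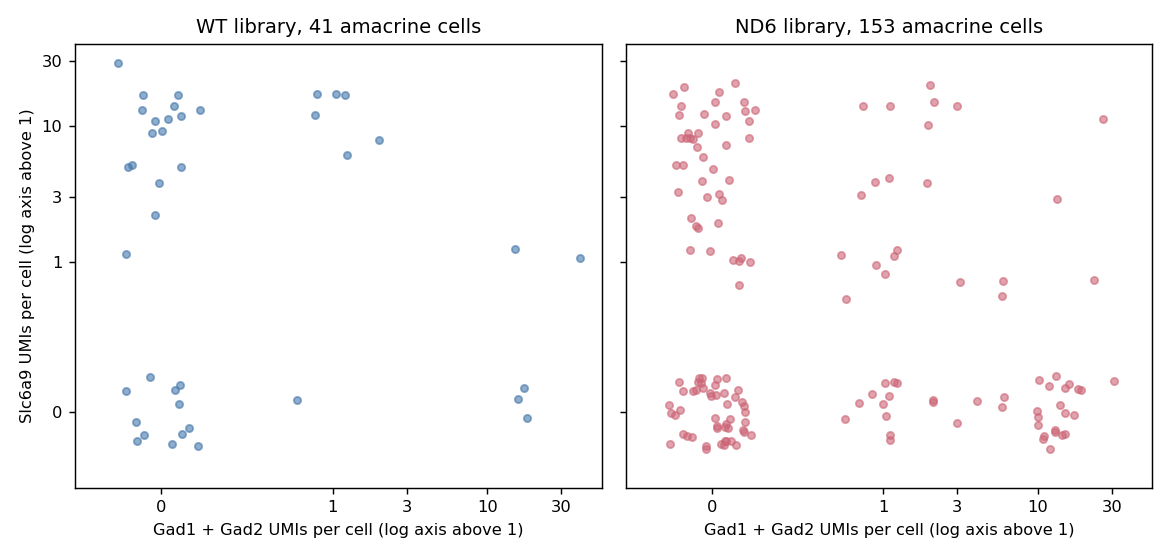
UMIs of *Gad1* and *Gad2* together (x axis) and of *Slc6a9* (y axis) in each amacrine cell of the WT library (41 cells, left) and the mutant library (153 cells, right), on axes that are logarithmic above 1 UMI, with points spread slightly at random so that cells with equal counts can be seen. Most cells lie along 1 of the axes or at 0 for both, and 8 WT and 22 mutant cells have UMIs of both kinds.

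The members that did not define this division followed it in different ways. *Slc32a1* was present on both sides, at 216 CPM in WT cells with a decarboxylase alone and 242 CPM in WT cells with *Slc6a9* alone. In the mutant it was at 227 and 188 CPM, a log2 ratio between the sides of 0.27 (−0.16 to 0.70). In cells with neither, it was nearly absent, with 0 UMIs in 12 WT cells and 4 UMIs in 49 mutant cells, at a median depth of 8892 and 7957 UMIs. Whether cells with neither are amacrine cells was not tested. They held 212018 of the 514469 UMIs of WT amacrine cells and 541178 of the 1742734 in the mutant. Those UMIs are part of the totals behind all amacrine levels and ratios above. Of 25 WT cells with *Slc6a9*, 23 had *Slc32a1*, as had all 10 WT cells with *Gad2*. In the mutant, 44 of 66 cells with *Slc6a9* and 34 of 40 cells with *Gad2* had it.

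*Slc6a11* went with the decarboxylases. It was at 171 CPM in mutant cells with a decarboxylase alone (68 UMIs in 26 of 38 cells) and at 17.1 CPM in those with *Slc6a9* alone (9 UMIs in 6 of 44 cells), a log2 ratio of 3.33 (2.32 to 4.51). In WT the counts were 4 UMIs in 3 of 4 cells and 0 UMIs in 17 cells. Most WT UMIs lay outside these sets, with 14 in 1 of 8 cells with both and 7 in 3 of 12 cells with neither. *Slc6a11* is therefore unevenly spread among amacrine cells of the mutant, although its mean over all of them was near the level outside cells. *Abat* was also higher on the GABA side, at 95.8 against 39.9 CPM in the mutant, a log2 ratio of 1.26 (0.46 to 2.11). In WT, 3 UMIs were found on either side, which gave 108 against 15.1 CPM, a log2 ratio of 2.84 (−0.06 to 5.74).

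Within cells with *Slc6a9* alone, the *Slc6a9* level, which the division used only as present or absent, was 893 CPM in 17 WT cells and 627 CPM in 44 mutant cells. The log2 ratio of mutant over WT was −0.51 (−0.78 to −0.24). *Slc32a1* in the same cells had a log2 ratio of −0.36 (−0.88 to 0.16). In cells with a decarboxylase alone, *Gad1* had a log2 ratio of −1.21 (−1.69 to −0.69, from 40 WT and 248 mutant UMIs). *Gad2* was at −1.01 (−1.89 to −0.00, from 12 and 85 UMIs). In cells with both, *Gad1* was at −1.56 (−2.12 to −0.998, from 51 and 63 UMIs) and *Gad2* at −0.15 (−1.16 to 0.97). Detection of these genes defined the sets, and few WT cells stand behind the ratios. The 4 WT cells with a decarboxylase alone had 1, 16, 17, and 18 UMIs of *Gad1* and *Gad2* together. Of the 51 *Gad1* UMIs in WT cells with both, 39 came from 1 cell. The intervals cover counting error only and not the spread between cells.

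**Figure D4:**
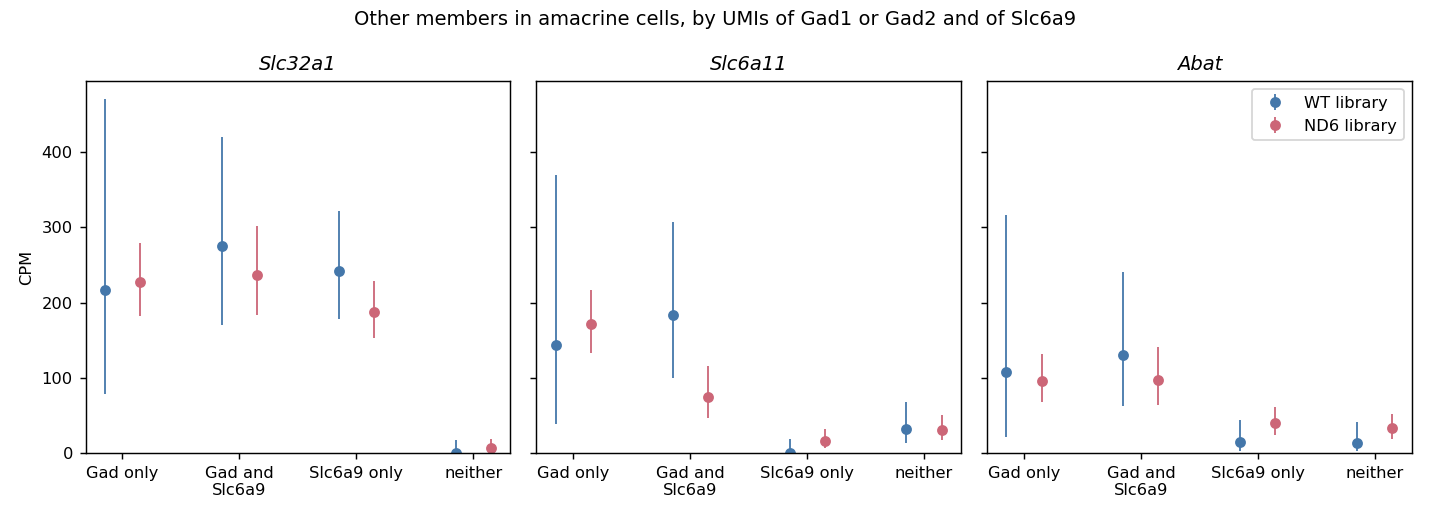
Level in CPM, with exact 95% Poisson intervals, of the 3 members *Slc32a1*, *Slc6a11*, and *Abat* in amacrine cells with UMIs of *Gad1* or *Gad2* only, of these and *Slc6a9*, of *Slc6a9* only, and of neither, in the WT (blue) and mutant (red) libraries. *Slc32a1* is at 188 CPM or more in the first 3 sets and at 7.39 CPM or less in cells with neither, whereas *Slc6a11* in the mutant is at 171 CPM in the first set and 17.1 CPM in the third.

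Outside the members, genes were ranked by how they followed the same division in both libraries. Of 2230 genes compared, 1419 had a log2 ratio of the same sign in both. On the GABA side stood *Cartpt*, a neuropeptide precursor, at 1147 against 131 CPM in the mutant, *C1ql1*, a secreted C1q-like protein (635 against 85.5 CPM), *Pcp4*, a calmodulin-binding peptide (1018 against 125 CPM), *Marcks*, a substrate of protein kinase C (701 against 79.8 CPM), and *Uchl1*, a neuronal ubiquitin hydrolase (207 against 28.5 CPM). On the glycine side stood *Lamp5* (10.1 against 304 CPM), *Dync1i1*, a dynein intermediate chain (20.2 against 175 CPM), *Tmem132a* (30.2 against 275 CPM), *Gjd2*, which encodes the gap junction protein connexin 36 (37.8 against 241 CPM), *Ppp1r1a*, an inhibitor of protein phosphatase 1 (17.6 against 180 CPM), and *Adrb1*, the β1-adrenergic receptor (30.2 against 150 CPM). In WT the GABA side had 4 cells and 27760 UMIs, and *Lamp5*, *Dync1i1*, *Gjd2*, and *Adrb1* had 0 UMIs there, so that the WT order rests on few cells. The ranking is a description, with no test.

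Of 30 further genes of the pathways, 26 had at least 20 UMIs in amacrine cells, 9 of them higher and 17 lower in the mutant, with a median log2 ratio of −0.05. Over all genes, 6.44% were past 2-fold higher and 2.75% lower, and 50.9% were lower to any degree. The 1 past 2-fold lower was *Slc6a5*, the neuronal glycine transporter GLYT2, at 38.9 CPM in WT and 17.2 CPM in the mutant (−1.18, −2.04 to −0.28), and the 1 past 2-fold higher was *Amt*, of the glycine cleavage system, from 4 and 29 UMIs (1.10, −0.41 to 3.07). Of 8 genes of glycine and serine metabolism, 6 were lower and 0 of these past 2-fold. The intervals of *Gcsh* (−0.61, −1.12 to −0.09) and *Dld* (−0.64, −1.08 to −0.20), which encode other parts of that system, excluded 0, and those of the remaining 4 included it. *Slc6a6*, the taurine transporter, was at 1139 CPM in WT and 1744 CPM in the mutant (0.61, 0.49 to 0.74). Its log2 ratio in rods was 0.63.

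Of 8 vesicle release genes with at least 20 UMIs in amacrine cells, 3 were higher and 5 lower in the mutant. Past 2-fold were 0 in either direction, where 6.44% of all genes were past 2-fold higher and 2.75% lower. *Snap25* (−0.10, −0.24 to 0.05), *Vamp2* (−0.01, −0.18 to 0.17), and *Rab3a* (−0.05, −0.25 to 0.16) all had intervals that include 0, and *Syt1*, the calcium sensor of release, was at 1487 and 1243 CPM (−0.26, −0.38 to −0.14). *Hspa8*, a chaperone of vesicle uncoating, was lower (−0.74, −0.89 to −0.59), and *Dnajc5* was higher (0.28, 0.007 to 0.57). Neither difference was particular to amacrine cells. The log2 ratio of *Hspa8* was −1.09 in rods and −1.03 over all cells, and that of *Dnajc5* was 0.32 and 0.40. The intervals of *Rims1* (0.56, −0.55 to 1.87) and *Cplx1* (0.06, −0.66 to 0.83) included 0. *Slc38a1*, a glutamine transporter, also had an interval that includes 0 (−0.04, −0.41 to 0.34).

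In rods, 28 of these genes could be compared, 21 higher and 7 lower, with 6 past 2-fold higher and 1 lower, where 13.4% and 1.09% of all genes were. The 6 were *Slc1a3*, the glial glutamate transporter (1.61), *Gldc* (1.40) and *Phgdh* (1.22) of glycine and serine metabolism, and *Rims1* (1.38), *Stx1a* (1.34), and *Cplx1* (1.09), of which the last pair belong to the conventional synapses of inner retinal neurons. All 6 were at less than 10 CPM in rods of either library, as were *Gad1*, *Gad2*, *Slc32a1*, *Slc6a13*, and *Abat*. *Hspa8* was the 1 past 2-fold lower, at 979 and 459 CPM (−1.09). *Snap25* and *Syt1*, which rods express at high levels, had log2 ratios of 0.01 and 0.01. In Müller cells, 17 genes could be compared, 8 higher and 9 lower, with *Rab3a* past 2-fold higher (1.63) and *Psph* past 2-fold lower (−1.07), where 4.92% and 7.01% of all genes were. In RPE cells, 20 could be compared, 14 higher and 6 lower, with 5 past 2-fold higher, among them *Slc6a6* (1.27), *Snap25* (1.40), *Syt1* (1.01), and *Rab3a* (1.29), where 9.11% of all genes were. Rods, whose markers summed to 8608 CPM in WT and 21126 CPM in mutant RPE cells, held *Slc6a6* at 1245 and 1922 CPM, *Snap25* at 472 and 476 CPM, and *Syt1* at 763 and 767 CPM. The part of rod RNA in the RPE values was not tested.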

How the data were processed

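For each library, the authors aligned droplet-based 3′ reads to mm10 with Cell Ranger 3.0.2 and deposited raw UMI counts per gene and barcode, not normalized and not filtered for cells. The release of the gene annotation is not given in the sources used here; positions were taken from GENCODE M21 by gene ID (7 of 7 members matched) and promoters from RefSeq (6 of 7 matched, *Abat* being the one without an entry). The members and lists were chosen with earlier results of these data known.

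The study's limits for cells were applied: a barcode needed 401 UMIs and 201 genes, and its mtDNA-encoded share could not exceed 20%. Classes were assigned per barcode by markers with at least 1 UMI: at least 2 of 3 for amacrine and Müller cells, at least 3 of 5 or 6 for rods, cones, bipolar cells, microglia, and RPE cells. A barcode that met the amacrine rule was amacrine whatever other rule it met; barcodes that met several other rules were left out, except that the rod rule was ignored for all classes but rods. Doublets were not removed. Barcodes of 10 to 100 UMIs, and of 101 to 200 UMIs (chosen after seeing the data), served for RNA outside cells. UMIs were summed per library and class and scaled to CPM. Intervals at 95% are exact (Poisson for levels, Clopper-Pearson for shares, conditional binomial for ratios) and cover counting error only. The ratio intervals were run on simulated independent Poisson counts. Those counts hold no clustering of UMIs in single cells, so the run cannot show how the intervals hold for genes that few cells carry. The total depth was 77958836 UMIs in WT and 80358255 in the mutant. No test was run, since each condition has 1 library.

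The genes named are the members, the pathway lists, and, by the smaller log2 ratio of both libraries, the 6 genes with at least 100 UMIs leading on either side of the division of amacrine cells. Some genes, including 1 of these, are not reported here. Values of the pathway genes were given for those past 2-fold and for a choice of others made after their values were seen. Alternatives changed the mtDNA limit, the UMI minimum, the marker rules, the scaling, the cell summary, and the thinning depth. Leaving out single barcodes, thinning to 4000 UMIs, rods without amacrine markers, the division of amacrine cells without mixed barcodes, and the scaling of barcodes of 101 to 200 UMIs without mtDNA-encoded genes were chosen after seeing the data. Python 3.11.15, NumPy 2.4.6, SciPy 1.17.1, pandas 2.3.3, and matplotlib 3.10.9 were used.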

Additional observations from a re-analysis of the deposited data

Results flagged for a closer look

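Barcodes above the mtDNA limit, which only the alternatives without that limit used, also held members. In WT, 18 such barcodes met the amacrine rule and had 36 UMIs of *Slc6a9*. In the mutant, 45 such barcodes had 44 UMIs of *Slc6a9* and 13 UMIs of *Gad1*. These counts are above the 3 counts that a count of 0 allows. The *Slc6a9* level was 634 CPM in WT and 275 CPM in the mutant, a log2 ratio of −1.20 (−1.87 to −0.53). Of these UMIs, 22 of 36 in WT and 19 of 44 in the mutant came from 1 barcode each, and without both the log2 ratio was −0.94 (−1.94 to 0.12). *Slc32a1*, with 9 and 11 UMIs, had a log2 ratio of −1.20 there (−2.61 to 0.25), an interval that includes 0. Of its 9 WT UMIs, 6 came from 1 barcode. Without the highest barcode of each library, the log2 ratio of *Slc32a1* was −0.72 (−2.95 to 1.91).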

How the results depend on the processing

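Of 54 alternative values of the member ratios in amacrine cells, 49 lay within the interval of the reported value, as did 15 of 16 in Müller cells and 23 of 28 in rods. Values near 0 changed sign in amacrine cells, with *Gad1* at −0.14 and *Slc32a1* at −0.14 for the mean of per-cell CPM and *Slc32a1* at −0.05 without the mtDNA limit. Without barcodes that met another class's rule, the log2 ratio in amacrine cells was 0.64 for *Gad1* and 0.55 for *Slc32a1*, and 2 members were past 2-fold higher. Without the cell highest in the gene in each library (chosen after seeing the data), it was 0.65 for *Gad1* and 1.49 for *Slc6a11*. With all 3 amacrine markers required, it was −0.49 for *Slc6a9*, 1 member was past 2-fold higher, 59.3% of mutant cells had a decarboxylase, and 76.9% of WT cells had *Slc6a9*. In Müller cells, 0 members were past 2-fold higher without the mtDNA limit and with the mean of per-cell CPM, and 2 with at least 1000 UMIs per cell. In rods, the log2 ratio of *Gad1* was 1.72 without the mtDNA limit. The share of WT cells with *Gad1* or *Gad2* was 12.2% with cells thinned to the UMI minimum and 15.0% at 1000 UMIs, and that of mutant cells 7.84%, 21.9%, and, at 4000 UMIs, 28.6%. The share with *Slc6a9* was 24.4% and 32.5% in WT, and 8.50%, 23.3%, and, at 4000 UMIs, 33.3% in the mutant. Thinning keeps fewer UMIs per cell, and the other causes were not tested. With barcodes of 10 to 50 UMIs, the mutant *Gad1* level was 30.2 CPM. No paired analysis was possible because each condition has 1 library. The WT amacrine values rest on few cells and counts: 41 cells gave 23 UMIs of *Gad2*, 25 of *Slc6a11*, and 19 of *Abat*.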
